A study of Dunaliella viridis with 39 samples.

Results

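The transfer of a nitrate-grown culture of the green alga Dunaliella viridis into medium without nitrogen was followed by comparing RNA taken 3 h after the transfer with RNA of the culture that was moved. The comparison used 6 of the 39 libraries of the study, 3 of the inoculum and 3 of the cultures without nitrogen at 3 h, chosen by their sample labels. All 18495 loci of the deposited count table were considered. The study supplied the moved cells with nitrate, glutamine or glutamate, each at 5 mM, or with nothing in place of nitrate, sampled each culture at 3, 27 and 51 h, and ran the experiment 3 times.

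All cells were of strain dumsii and were kept at 23.5 °C in unbroken light of 125 µmol photons per m2 and s. The inoculum group was labelled with nitrate as its nitrogen source and was taken as the treatments of the same repeat were started. The protocol says that cultures for inoculation grew for a week in experimental conditions, without naming a medium, so nitrate growth rests on the sample label alone. Cultures were duplicated within a repeat, and how the duplicates entered a library is not stated in the labels. The group without nitrogen held cells of that inoculum that had been pelleted at 3500 g for 6 min, resuspended in 450 ml of fresh medium at a set cell density and left for 3 h. The comparison therefore changed several things together. Centrifugation, a new cell density, fresh medium, 3 h of time and the loss of nitrate cannot be told apart within it. The sample records give 3500 g and 6 min for the inoculum libraries too, so a difference in centrifugation is not certain. The nitrate cultures at 3 h went through the same steps and differed from the cultures without nitrogen, per the labels, in the nitrate added. The glutamine and glutamate cultures received an amino acid in its place.

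Green algae take up nitrate, reduce it to nitrite and then to ammonium, and build the ammonium into glutamine and glutamate. Without nitrogen they stop dividing after a time, lose chlorophyll and store carbon as starch or lipid. Dunaliella has no rigid cell wall and balances the salt outside with glycerol, and moving cells to fresh medium at another density is itself known to disturb a culture of microalgae. In the deposited tables a locus has a number, and no gene name goes with it. Sets of loci are therefore described by size and direction, and the few single loci by their number, with no role given to them.

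The 3 inoculum libraries held 8991831, 4297587 and 18528770 counts, and the 3 libraries without nitrogen held 10579978, 6499166 and 10645653. Between 17918 and 18345 loci had at least a count in each of the 6, and 17569 loci entered the test. In every library of the study the most abundant locus was Locus_10041. The 10 most abundant loci held 50.9% ± 3.90 (SD, n = 3) of the counts in the inoculum and 49.4% ± 3.89 without nitrogen, a difference of -1.53 percentage points (exact two-sided permutation p = 0.6, where 3 libraries against 3 cannot go below 0.1). Without nitrogen, replicates 1 and 2 were sequenced in run 1 and replicate 3 in run 2. Inoculum replicate 1 was in run 1 and replicates 2 and 3 were in run 2. None of the 3 libraries of the study that stand apart from their groups is among the 6. Nitrate replicate 2 at 3 h, used for comparison, is such a library, with 18.2% of its counts in the 10 most abundant loci against 58.3% and 44.5% in replicates 1 and 3.

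At 3 h, 379 loci differed between the cultures without nitrogen and the inoculum, 2.16% of the 17569 tested (edgeR quasi-likelihood test, Benjamini-Hochberg adjusted p under 0.05). Of these, 167 were higher after the transfer (0.951%) and 212 were lower (1.21%). Changes of at least 2-fold were fewer, 58 higher (0.33%) and 97 lower (0.552%), and 12 loci rose and 19 fell by 4-fold or more. The median log2 fold change of all loci tested was 0.00, and at an unadjusted p under 0.05 there were 2366 loci. In bulk RNA a change in the share of cells in some state and a change of RNA per cell cannot be told apart.

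**Figure D1:**
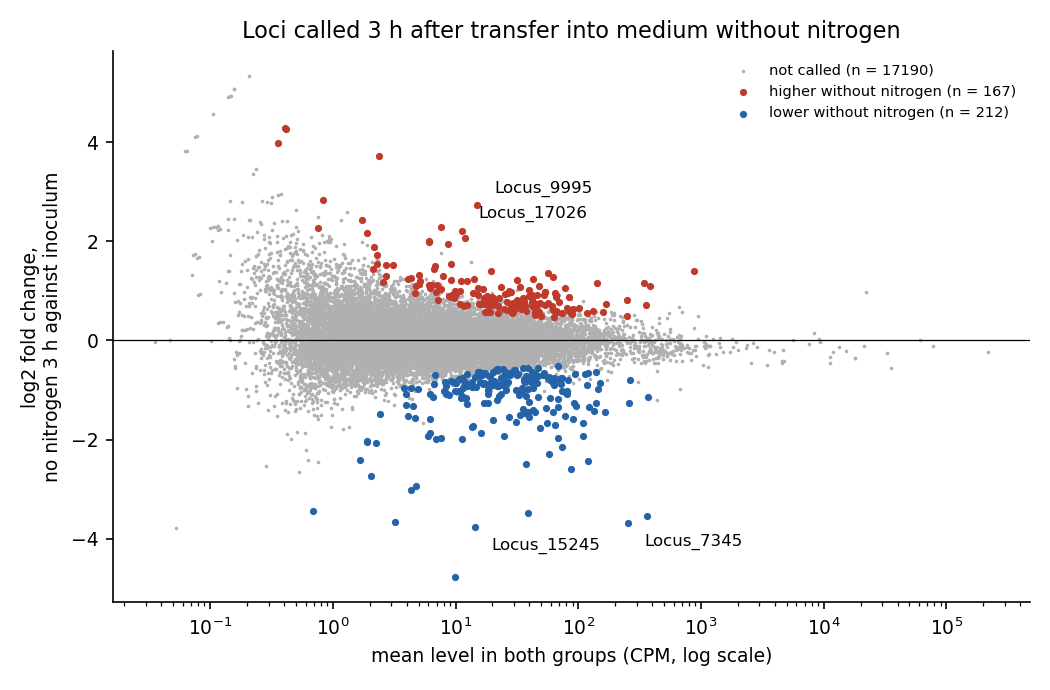
Each point is a locus, with its mean level over the 6 libraries in counts-per-million (CPM, log scale) on the horizontal axis and its log2 fold change, no nitrogen at 3 h against the inoculum, on the vertical axis. Red points are the 167 loci called higher and blue points the 212 called lower, most of them at changes of under 4-fold and at middle to high levels.

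The median log2 fold change of the raised loci was 0.87 (quartiles 0.70 and 1.15), and the highest reached 4.28. Among them 19 rose by under 1.5-fold, 90 by 1.5-fold to 2-fold, 46 by 2-fold to 4-fold and 12 by more. Their median level was 17.2 CPM in the inoculum and 30.4 CPM at 3 h without nitrogen. For the lowered loci the median was -0.96 (quartiles -1.36 and -0.76) and reached -4.78. Their median level went from 31.5 CPM to 17.5 CPM. Among them 7 fell by under 1.5-fold, 108 by 1.5-fold to 2-fold, 78 by 2-fold to 4-fold and 19 by more. No called locus was at 0 in all libraries of either group, so none of the changes is from or to an undetected level.

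Summed over the 167 raised loci, expression was 5429, 5373 and 5127 CPM in inoculum replicates 1 to 3 and 11064, 9020.3 and 9147 CPM without nitrogen. The 212 lowered loci summed to 13142, 11215 and 13195 CPM in the inoculum and to 5169, 5734 and 5465 CPM without nitrogen. For both lists all 3 libraries of each group lay on their own side, which the choice of the loci makes likely. Replicate 1 without nitrogen was the highest of its group for the raised loci. The groups did not overlap at 371 of the 379 called loci, where 17.2% of all loci tested did not overlap. Within the 3 repeats of the experiment, 165 of the 167 raised loci were higher and 212 of the 212 lowered loci were lower in all 3 pairs of libraries, and of all 17569 loci tested 2809 were higher and 2894 lower in all 3. The same libraries chose the called loci, which nearly fixes these counts. The median difference of the raised loci was 0.95, 0.69 and 0.83 in repeats 1, 2 and 3 on the log2 scale, and that of the lowered loci was -1.10, -0.74 and -1.07.

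The called loci lay toward the abundant end of the transcriptome. With the loci cut into 4 equal classes by mean level, 251 were called in the highest class, from 16.4 CPM up (5.71%). In the next class 86 were called (1.96%), then 31 (0.706%), and in the lowest class, under 2.03 CPM, 11 (0.25%). The precision moved with the level. The median standard error of a log2 fold change was 0.183 in the highest class and 0.544 in the lowest, and its part in the counts was not tested. Over all loci, fold changes had a 95% interval inside 2-fold in either direction for 59.4%, and for the rest a change of 2-fold was not excluded at this depth.

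Direction held for most loci in pairs of libraries left out of the choice. With the 2 libraries of repeat 1 left out of the choice, 39 loci were called higher and 90 lower. In repeat 1 itself 36 of those 39 (92.3%) were higher and 90 of those 90 were lower, with median log2 differences of 0.72 and -1.33. Left out in the same way, repeat 2 showed 113 of 133 raised loci higher (85%) and 182 of 194 lowered loci lower (93.8%), at medians of 0.50 and -0.64. In repeat 3 the counts were 48 of 50 (96%) and 91 of 92 (98.9%), at medians of 0.66 and -1.20. Among all loci tested, 48.4% to 51.6% moved in the direction asked for in each of these pairs. Repeat 2 thus gave the smallest medians of the 3 in either direction. The loci followed differ between the repeats left out, and the lists chosen without repeat 2 were the longest, so the repeats are not compared on the same loci. The raised loci changed by less in the repeat left out than in the fits that chose them, whose medians were 1.11, 1.15 and 1.15. The lowered loci did so in repeats 2 and 3, where the fits had medians of -1.12 and -1.28. In repeat 1 they did not, with a median of -1.31 in the fit.

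The number of calls depended on single libraries and on the scaling. Without replicate 1 of the cultures without nitrogen, 185 loci were called, 63 higher and 122 lower, of which 180 were among the 379. Without inoculum replicate 3 there were 221, of which 195 were among the 379. Total counts in place of scaling factors gave 23 calls, 6 higher and 17 lower, a share of 26.1% higher where the scaled counts gave 44.1%, and that scaling moved the median of all loci to 0.14. Within run 1 alone 71 loci were called and within run 2 alone 31. The median of the raised loci was 0.90 in run 1 and 0.79 in run 2, and that of the lowered loci -0.997 and -0.983. The libraries of both runs chose these loci together, so their sign within a run is nearly fixed by the choice.

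The 2 raised loci with the largest fold change, taken from called loci that averaged at least 10 CPM and did not overlap, were Locus_9995 and Locus_17026. Locus_9995 stood at 4.33, 3.84 and 3.69 CPM in inoculum replicates 1 to 3 and at 39.8, 23.6 and 15.2 CPM without nitrogen. All 3 libraries rose, and the level at 3 h was highest in replicate 1 and lowest in replicate 3. The means were 3.95 ± 0.334 and 26.2 ± 12.5 CPM (SD, n = 3), which is 2.73 on the log2 scale (SE 0.445, edgeR adjusted p = 1.40e-04). Locus_17026 was tighter, at 5.11, 4.48 and 2.83 CPM in the inoculum and 17.5, 20.9 and 17.1 CPM after the transfer. Its mean went from 4.14 ± 1.18 to 18.5 ± 2.08 CPM (SD, n = 3), a log2 rise of 2.21 (SE 0.268, edgeR adjusted p = 1.04e-06).

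Nitrate values for these loci are set beside them, with no test between the 2 loci. In the nitrate cultures at 3 h Locus_17026 was at 14.6, 25.2 and 14.4 CPM, and its difference between no nitrogen and nitrate was 0.00 (95% interval -0.47 to 0.47, log2). Locus_9995 was at 22.1, 5.99 and 5.13 CPM in nitrate, below the culture without nitrogen in every repeat, but the ranges overlapped. That difference was 1.27 (95% interval 0.48 to 2.07) and did not pass the adjusted test (edgeR adjusted p = 1). At later times both loci had means above those of the inoculum without nitrogen, and lower means in nitrate. Locus_17026 was at 12 ± 4.66 CPM at 27 h and 10.3 ± 0.835 CPM at 51 h, against 1.29 ± 0.633 and 1.97 ± 0.309 CPM in nitrate (SD, n = 3). Locus_9995 was at 37.9 ± 10.3 and 25.4 ± 1.97 CPM without nitrogen and at 3.02 ± 1.27 and 5.28 ± 1.09 CPM in nitrate.

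The 2 lowered loci named by the same rule were Locus_15245 and Locus_7345. Locus_7345 was an abundant transcript, at 643, 383 and 392 CPM in the inoculum and at 44.9, 30.7 and 34.1 CPM without nitrogen. Replicate 1 was the highest on both sides of the transfer, and the groups were far apart. The mean fell from 473 ± 147 to 36.6 ± 7.44 CPM (SD, n = 3), a log2 change of -3.69 (SE 0.505, edgeR adjusted p = 9.27e-06). Locus_15245 stood at 46.4, 14.1 and 20.3 CPM in the inoculum and 2.55, 1.16 and 2.02 CPM after the transfer. Its inoculum libraries spread widely, yet the lowest of them was above every library without nitrogen. The log2 fold change was -3.76 (SE 0.500, edgeR adjusted p = 6.59e-06). In nitrate at 3 h these loci had fallen as well, to 66.4, 39.3 and 36.9 CPM for Locus_7345 and to 3.91, 3.46 and 2.57 CPM for Locus_15245. Within a single run, where 2 libraries stand against 1, none of the 4 loci kept its call in both runs. Locus_9995 and Locus_17026 lost it in run 1, with log2 fold changes of 2.89 and 1.91 and edgeR adjusted p-values of 0.0885 and 0.0597. Locus_15245 and Locus_7345 lost it in run 2, at -3.12 and -3.50, with edgeR adjusted p-values of 0.182 and 0.228.

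The transfer into nitrate, which shares the inoculum libraries, gave 720 calls (4.1% of loci tested), 420 higher (2.39%) and 300 lower (1.71%). That count was 456 without the 3 libraries that stand apart, 351 without inoculum replicate 1 and 365 without nitrate replicate 2, and 109 and 16 within runs 1 and 2. Because the inoculum is shared, the values of the 2 transfers are only set side by side. The median log2 fold change of the 167 raised loci was 0.86 on transfer into nitrate and 0.87 on transfer into no nitrogen. The 212 lowered loci had medians of -0.88 and -0.96. Into glutamine the medians were 0.89 and -1.03, and into glutamate 0.73 and -0.83. No medium gave either list a median near 0, with the same inoculum on the other side.

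A further 3 loci were named for the nitrate transfer by the same rule. Locus_11294 had inoculum levels of 912, 521 and 562 CPM and stood at 74.99, 47.4 and 49.5 CPM without nitrogen, with a log2 fold change of -3.53 there (edgeR adjusted p = 7.63e-05) and -3.51 into nitrate. Locus_3154 went from 98.3, 49.7 and 67.5 CPM to 6.36, 3.65 and 8.63 CPM, a change of -3.48 (edgeR adjusted p = 4.29e-10), and by -3.40 into nitrate. Neither locus overlapped between the inoculum and the cultures without nitrogen. Locus_11442 rose most into nitrate, to 21.6 ± 9.37 CPM from 2.23 ± 1.16 CPM (SD, n = 3). Without nitrogen it stood at 14.7, 11.9 and 3.31 CPM, and replicate 3 lay within the inoculum range of 1.07 to 3.38 CPM (log2 fold change 2.00, edgeR adjusted p = 0.0188).

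**Figure D2:**
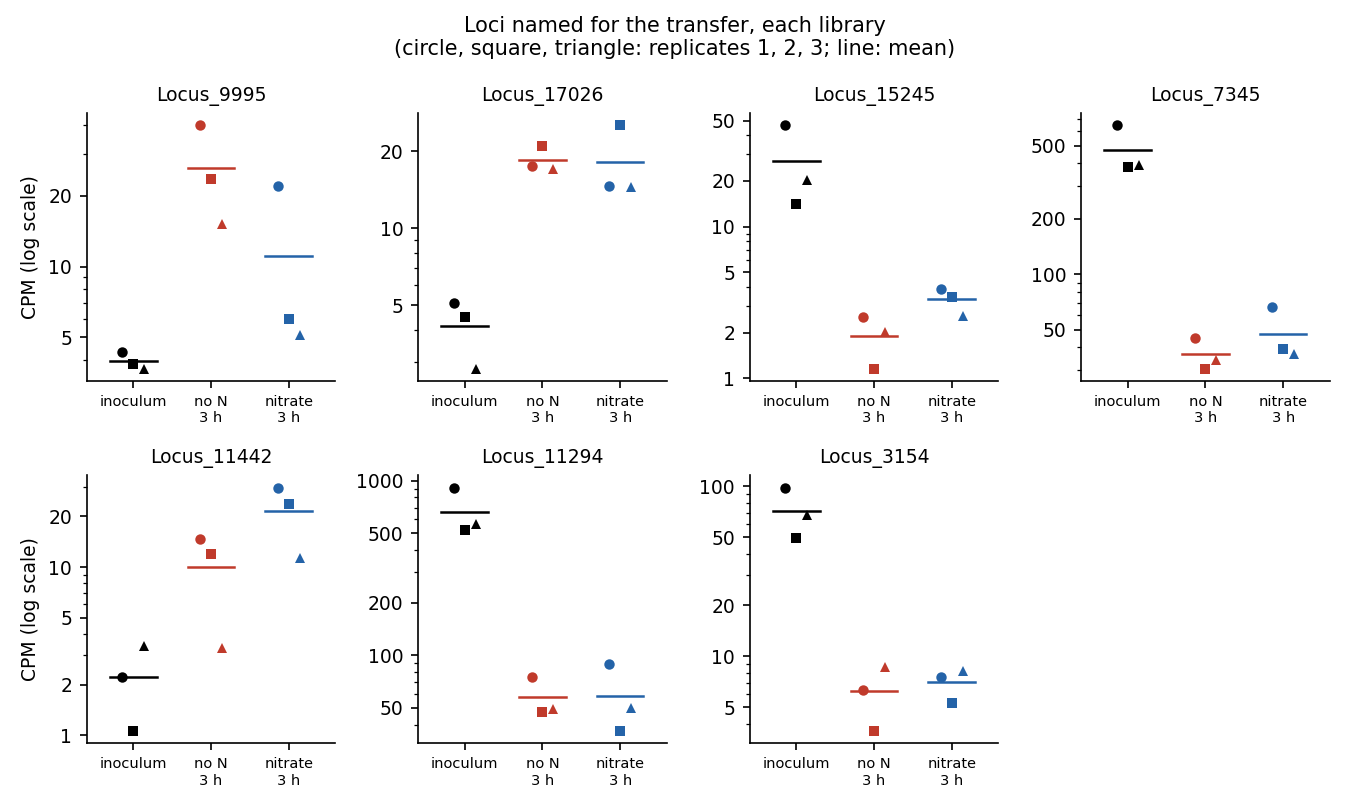
Levels in CPM (log scale) of the 7 loci named for the transfers, in each library of the inoculum, of the cultures without nitrogen and of the nitrate cultures at 3 h; circles, squares and triangles are replicates 1, 2 and 3 and lines are means. Locus_15245, Locus_7345, Locus_11294 and Locus_3154 sit lower in both media than in any inoculum library, and Locus_9995 is the locus with the widest gap between the means of the 2 media.

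The loss of nitrogen itself was tested by setting the cultures without nitrogen against those in nitrate at 3 h, where the inoculum drops out. With edgeR 0 of 17569 loci passed (0%), 622 had an unadjusted p under 0.05, DESeq2 called 1 and limma on TPM called 0. With the replicate as a block edgeR called 1, and without nitrate replicate 1 it called 3. It called 0 without nitrate replicate 2 and 0 within either run. A miss of the threshold does not show equal levels, and the intervals say how far the 2 media can have differed. For 143 of the 167 raised loci (85.6%) and 187 of the 212 lowered loci (88.2%), the 95% interval of the difference lay within 2-fold, and for all loci tested it did for 68.2%. It did for 36 of the 58 loci raised at least 2-fold (62.1%) and 107 of the 109 raised by less (98.2%). For loci lowered at least 2-fold it did for 73 of 97 (75.3%). Called loci lay toward the abundant end, where standard errors at the transfer were smaller, and the part of this in these shares was not tested. The median difference was -0.02 for the raised loci, -0.10 for the lowered loci and -0.02 for all loci on the log2 scale, and total counts moved that of all loci to -0.24. For the 58 loci raised at least 2-fold it was 0.27, with 39 of them positive, where 8341 of all 17569 loci were. These 58 loci were chosen for high values in the same libraries.

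Against glutamate at 3 h edgeR called 0 loci as well (0%). At an unadjusted p under 0.05 there were 419, and neither DESeq2 nor limma called any. The intervals lay within 2-fold for 70.0% of all loci. The median difference was 0.07 for the raised loci and -0.11 for the lowered loci. Glutamate is described in the labels as an amino acid that the cells do not use.

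Glutamine was the medium that separated from no nitrogen at 3 h. Here 66 loci differed (0.376% of those tested), 65 of them higher without nitrogen (0.37%) and 1 lower (0.00569%), and 50 of the 65 by at least 2-fold (0.285%). Of the 65, 17 were among the loci raised at the transfer (0.951% of all loci), 4 among those lowered (1.21% of all loci) and 44 were called in neither direction. Both comparisons use the same libraries without nitrogen, so nothing is read from these shares. Without replicate 1 of the cultures without nitrogen 40 loci passed, and within runs 1 and 2 there were 31 and 15, all higher without nitrogen. Their mean level was 3.93 ± 0.114 log2 CPM in the inoculum, 4.34 ± 0.243 without nitrogen, 3.97 ± 0.175 in nitrate, 4.34 ± 0.283 in glutamate and 2.17 ± 0.0452 in glutamine (SD, n = 3). A low level in glutamine against no nitrogen is fixed by the choice of these loci. The inoculum, nitrate and glutamate libraries took no part in it other than through the shared spread.

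Locus_363 was the most abundant of the loci named for this difference. It stood at 570, 441 and 440 CPM in the inoculum and at 1757, 972 and 1078 CPM without nitrogen, and in glutamine at 3 h it was at 5.17, 5.19 and 5.77 CPM. Its log2 fold change was 1.39 at the transfer into no nitrogen (edgeR adjusted p = 5.58e-04) and 7.88 for no nitrogen against glutamine (edgeR adjusted p = 8.61e-20). Nitrate at 3 h gave 1127, 718 and 525 CPM, between the inoculum and the culture without nitrogen in mean. Locus_9995, raised at the transfer, was nearly undetected in glutamine. It had 738 counts over the 3 libraries without nitrogen and 2 over the 3 in glutamine. On TMM-scaled libraries, as for CPM, that is a ratio of 614 (95% interval 169 to 5078, counting error only). Locus_2093 was the single locus lower without nitrogen, at 31.6, 51.3 and 49.4 CPM against 61.3, 69.8 and 95.8 CPM in glutamine. Its log2 fold change was -0.78 (edgeR adjusted p = 0.0466) and passed in 8 of the 19 alternative fits.

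The shift at 3 h was followed through the later samples, as the mean log2 CPM of each list. The raised loci stood at 3.78 ± 0.064 in the inoculum and 4.75 ± 0.173 at 3 h without nitrogen, and were at 4.19 ± 0.0928 at 27 h and 4.12 ± 0.0998 at 51 h (SD, n = 3). In nitrate they were at 4.70, 4.13 and 3.99 at the same times. By this mean, each medium was at its highest for these loci at 3 h. The loci were chosen for high values without nitrogen at 3 h against the inoculum, which favours a peak there. Summed in CPM, the glutamine libraries were at 7429, 7292 and 7178 at 3 h and higher, at 8216, 8315 and 8389, at 27 h. In nitrate and without nitrogen every library summed higher at 3 h than later, and in glutamate the times overlapped. The lowered loci stood at 5.07 ± 0.154 in the inoculum and 3.92 ± 0.0295 at 3 h, and without nitrogen remained low, at 4.15 ± 0.0985 and 4.16 ± 0.0665. In nitrate they were at 4.00, 3.97 and 4.47. By this mean, the inoculum level of the lowered list was reached in no medium by 51 h, but these inoculum libraries chose the list. Summed in CPM, the lowered list in nitrate at 51 h was at 10411, 13758 and 12474. This overlaps the inoculum sums of 13142, 11215 and 13195 CPM. Every library of the other media summed to under the lowest inoculum library.

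**Figure D3:**
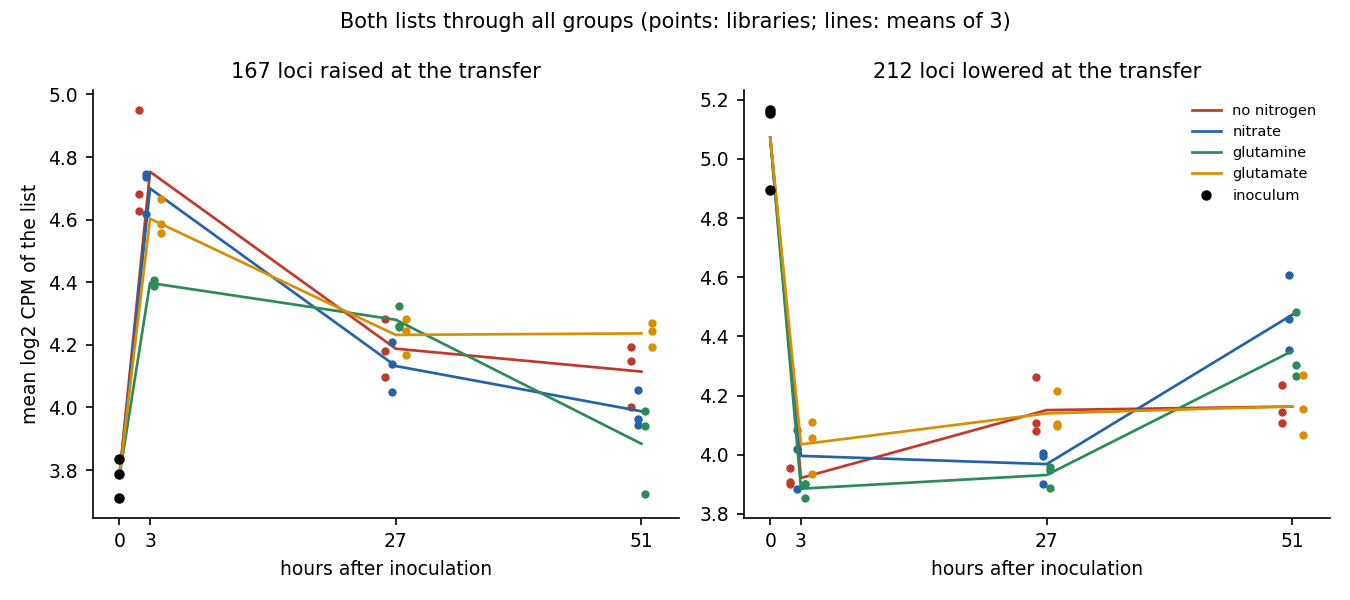
Mean log2 CPM of the 167 raised loci (left) and the 212 lowered loci (right) in each library against hours after inoculation, with points of the 4 media set slightly apart sideways and lines through the means of 3 libraries. By this mean the raised list peaks at 3 h in every medium. That list was chosen for high values at 3 h without nitrogen against the inoculum. The lowered list stays at or under 4.61 in every library after the inoculum.

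The later nitrogen response was measured at 27 h in libraries whose levels took no part in choosing the loci. They came from the same 3 repeats and entered the shared estimate of the spread, and a fit of the 6 transfer libraries alone called 227 loci, 211 of them among the 379. At 27 h 6899 loci differed between no nitrogen and nitrate (39.3%), 3541 higher (20.2%) and 3358 lower (19.1%). Total counts in place of scaling factors gave 2842, of which 82.1% were higher where the scaled counts gave 51.3%, and moved the median of all loci from 0.09 to 0.39. Within runs 1 and 2 there were 4164 and 4448 calls. Of the 167 loci raised at the transfer, 48 were higher without nitrogen at 27 h (28.7%), 58 were lower (34.7%) and 61 passed in neither direction. Of the 212 lowered loci, 73 were higher (34.4%), 50 were lower (23.6%) and 89 passed in neither direction. The median log2 fold change was -0.18 for the raised list, 0.18 for the lowered list and 0.09 for all loci tested. By repeat the raised list had -0.05, -0.13 and -0.28 and the lowered list 0.28, 0.13 and 0.05. With total counts the balance of calls turned for the raised list, to 35 higher (21%) and 11 lower (6.59%), and the lowered list had 48 higher (22.6%) and 14 lower (6.6%). Of all 17569 loci tested, 2333 were higher and 509 lower with that scaling. The medians were then 0.09 for the raised list and 0.47 for the lowered list, beside 0.39 for all loci. Neither list moved to a single side at 27 h under either scaling.

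The raised loci were also split by the size of their change at 3 h. Of the 58 raised at least 2-fold, 31 were higher without nitrogen at 27 h (53.4%) and 11 lower (19%), with a median log2 fold change of 0.84. Of the 109 raised by less, 17 were higher (15.6%) and 47 lower (43.1%), with a median of -0.35. With total counts the 58 loci had 24 higher (41.4%) and 8 lower (13.8%) and a median of 1.13. The 109 then had 11 higher (10.1%) and 3 lower (2.75%), the opposite balance, and a median of -0.05. Under that scaling all 17569 loci tested had 2333 higher and 509 lower, so 82.1% of all calls were higher, and a median of 0.39. The level of the loci moved with this split. Among all loci tested, 23% of those with a mean under 10 CPM were higher at 27 h and 7.31% lower, while 15.1% of those at or above 10 CPM were higher and 39.7% lower. Of the raised loci of at least 2-fold, 36 were under 10 CPM, of which 21 were higher and 4 lower, and 22 were at or above it, of which 10 were higher and 7 lower. Without replicate 1 of the cultures without nitrogen at 3 h, 24 loci were called higher at that size. At 27 h 12 of them were higher (50%) and 8 lower (33.3%), with a median of 0.61, where 20.2% and 19.1% of all loci were.

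**Figure D4:**
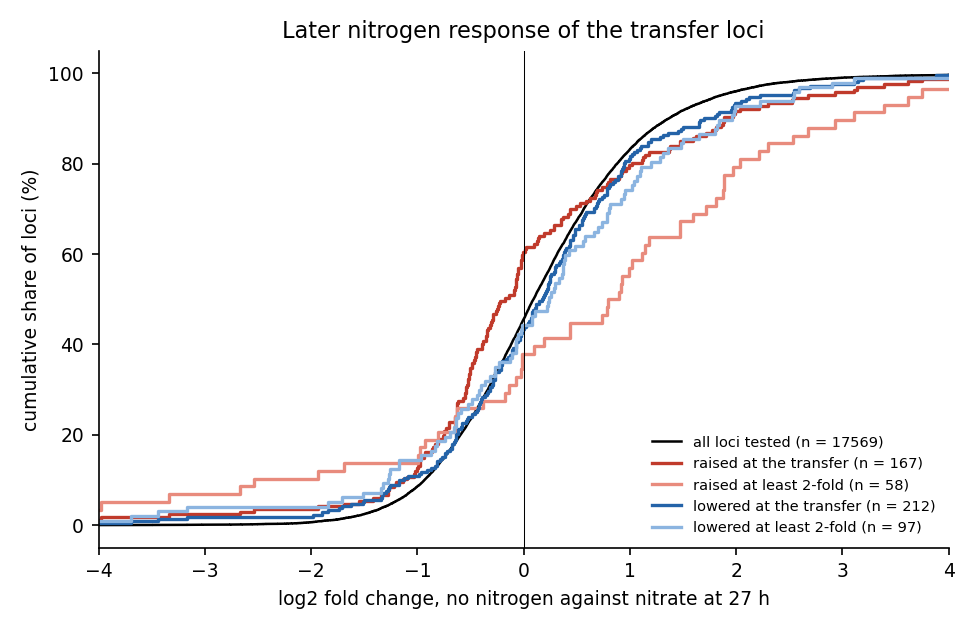
Cumulative share of loci (percent) against the log2 fold change of no nitrogen against nitrate at 27 h, drawn from -4 to 4, for all 17569 loci tested and for the loci raised or lowered at the transfer. The curve of the 58 loci raised at least 2-fold lies to the right of that of all loci over most of its range (median 0.84 against 0.09), and the curve of all 167 raised loci crosses 0 at a higher share (median -0.18).

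At 3 h the raised loci that later parted were not yet told apart by the test, and their levels were as follows. The 48 that were higher without nitrogen at 27 h averaged 2.75, 2.67 and 2.72 log2 CPM in inoculum replicates 1 to 3, 4.40, 3.73 and 3.83 at 3 h without nitrogen and 3.79, 3.67 and 3.58 at 3 h in nitrate. Replicate 1 without nitrogen stood high, and the other replicates were close to the nitrate cultures. The median difference between no nitrogen and nitrate at 3 h was 0.30, with 39 of the 48 positive. The 58 that were lower at 27 h averaged 5.39, 5.37 and 5.34 log2 CPM at 3 h without nitrogen and 5.47, 5.57 and 5.42 in nitrate, each library without nitrogen below all of those in nitrate. Their median difference was -0.16, with 9 of the 58 positive. Of all 17569 loci tested, 8341 were positive in this difference. Both sets share the choice by high values without nitrogen at 3 h, and no single locus of them passed the test at that time.

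Across the 4 sets the levels took different courses. The 48 loci went from 2.71 log2 CPM in the inoculum to 3.99 at 3 h and 4.45 at 27 h without nitrogen, and in nitrate were back at 2.78 at 27 h. The 58 loci went from 4.57 to 5.36 at 3 h and then to 4.07 at 27 h without nitrogen, below the inoculum, while nitrate kept them at 5.20. Of the lowered loci, the 73 that were later higher went from 4.89 to 3.79 at 3 h and were at 4.97 at 27 h without nitrogen, against 3.64 in nitrate. The 50 that were later lower went from 5.85 to 4.76 and on to 3.94, against 5.19 in nitrate. The levels at 27 h chose these sets and are given as a description.

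Among loci called at the transfer, 4 were named for the largest differences at 27 h. Locus_14407 rose at the transfer from 2.23, 3.63 and 3.01 CPM to 10.5, 4.31 and 6.45 CPM (log2 fold change 1.31, edgeR adjusted p = 0.0307) and went on to 50.4 ± 10.2 CPM at 27 h, against 2.05 ± 0.466 CPM in nitrate (SD, n = 3). Locus_11091 fell at the transfer, from 28.6, 20.7 and 22.5 CPM to 9.50, 10.9 and 9.84 CPM (-1.25, edgeR adjusted p = 9.51e-05). By 27 h it had turned, to 83.5 ± 4.75 CPM without nitrogen, with 4.18 ± 0.821 CPM in nitrate, so that a fall at 3 h came before a level above the inoculum.

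The other 2 were lower without nitrogen at 27 h. Locus_1065 fell at the transfer from 343, 388 and 361 CPM to 112, 190 and 153 CPM (log2 fold change -1.27, edgeR adjusted p = 1.91e-04). In nitrate it returned to 412 ± 29.3 CPM at 27 h, and without nitrogen it was at 6.20 ± 1.17 CPM (SD, n = 3). Locus_134 rose at the transfer from 2.23, 4.05 and 4.18 CPM to 13.2, 8.63 and 8.14 CPM (1.5, edgeR adjusted p = 0.0046). At 27 h it was at 34.7 ± 3.30 CPM in nitrate, and the cultures without nitrogen held 1.70 ± 0.411 CPM, which is below every inoculum library. The differences at 27 h were 4.62 for Locus_14407, 4.28 for Locus_11091, -6.05 for Locus_1065 and -4.33 for Locus_134 on the log2 scale, with edgeR adjusted p-values of 6.42e-13, 6.00e-17, 3.79e-19 and 7.22e-13. These 4 loci thus show each of the 4 orders of direction, up then up, down then up, down then down and up then down. The first direction is against the inoculum and the second against nitrate at 27 h. On transfer into nitrate Locus_11091, Locus_1065 and Locus_134 were also called at 3 h, at -1.56, -0.95 and 1.76. Locus_14407 was not called there, at 0.63. For Locus_11091, Locus_1065 and Locus_134 the step at 3 h is thus not particular to the cultures without nitrogen. For Locus_14407 this is not shown.

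**Figure D5:**
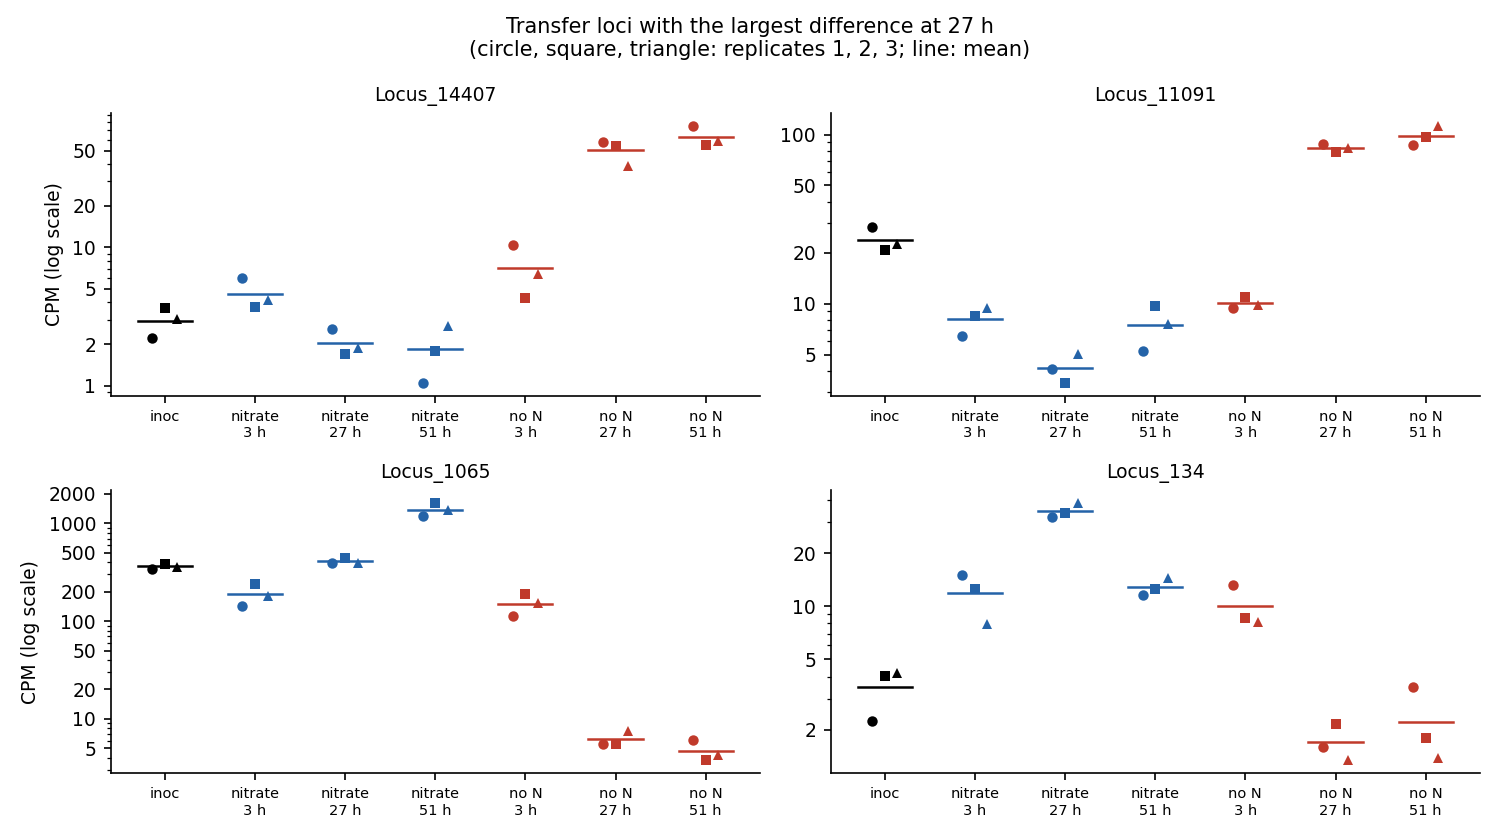
Levels in CPM (log scale) of the 4 loci called at the transfer that differed most at 27 h, in each library of the inoculum, of the nitrate cultures and of the cultures without nitrogen at 3, 27 and 51 h; circles, squares and triangles are replicates 1, 2 and 3 and lines are means. At 3 h the libraries with and without nitrogen lie close together for each locus, and at 27 and 51 h they do not overlap.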

How the data were processed

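RNA of whole cells was depleted of ribosomal RNA and sequenced as single-end reads of 125 bp in 2 runs, per the labels' protocols. The authors deposited a table of whole read counts and a table of TPM values (transcript abundance scaled to a fixed total), each with a column per library. Per the submitters' processing notes the tools were edgeR 3.4.0, RSEM, STAR and FastQC, without roles. A genome build, an annotation, a strand setting and filters were not given in the sources used here. Every column matched a sample title, and 0 were left without a sample. How reads of overlapping or near-identical loci were assigned is not stated either, and such reads may have been split between them.

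The counts were tested with edgeR 4.0.16 in R 4.3.3. filterByExpr kept 17569 loci and left out 926 that held 0.0235% of the counts. TMM factors of the 6 libraries ran from 0.848 to 1.17. The quasi-likelihood fit took all 39 libraries and gave each group a mean, with the spread shared between groups, and p-values were adjusted by Benjamini-Hochberg over all loci tested at 0.05. CPM values are on TMM-scaled libraries, and a prior count of 2 was added for log2 CPM. Standard errors follow from the fold change and the F value and are approximate. Counting intervals are at the 95% level and cover counting error only. Per the labels each library of a group is from its own repeat of the experiment, and no pair within a group agreed to within sampling noise (chi-square per degree of freedom 9.14 to 24.3, over loci that reached 10 counts in the pair).

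A replicate number stands for a repeat of the experiment in the labels, so libraries with the same number are paired. Deviations from the group means correlated at 0.0628, -0.0846 and -0.136 for the same number and between -0.0783 and 0.15 for different numbers. The fits were also run on simulated counts, drawn with the spread that edgeR estimated and with no effect of repeat or run. That simulation cannot show which scaling suits these data. Alternatives used RLE factors, total counts, other filters, DESeq2 1.42.0, limma 3.58.1 on log2(TPM + 1) or log2(TPM + 0.1), the replicate block, run as a covariate, fewer libraries, single runs, and each library left out.

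IDs could not be matched to names, so gene lists were not used. Loci were named by a rule: for each comparison, the 2 highest and the 2 lowest log2 fold changes of called loci that averaged at least 10 CPM and did not overlap between the groups, at 27 h only among loci called at the transfer. At no nitrogen against nitrate or glutamate at 3 h no locus met it. The members and lists were chosen with earlier results of these data known.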

Additional observations from a re-analysis of the deposited data

Results flagged for a closer look

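The transfers into no nitrogen and into glutamine differed by a test of the difference itself, in which the shared inoculum drops out. At 3 h 66 loci passed it (edgeR, Benjamini-Hochberg adjusted p under 0.05). Locus_9995 had a log2 fold change of 8.96, no nitrogen against glutamine, and was higher without nitrogen in all 3 repeats. It rests on 2 counts in glutamine, so its size depends on the prior count within the edgeR fit. That is not the prior count of 2 added for log2 CPM. Locus_363 had a log2 fold change of 7.88 and did not overlap between the groups. Locus_2093 had -0.779, in the other direction, and lost its call in 11 of 19 alternatives.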

How the results depend on the processing

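For no nitrogen at 3 h against the inoculum, 379 loci became 23 with total counts, 590 with the stricter filter (a mean of at least 10 CPM, 6709 loci tested), 581 with DESeq2, 227 in a fit of the 6 libraries alone, 71 within run 1, 31 within run 2, and 17 and 15 with limma on log2(TPM + 1) and log2(TPM + 0.1). With the replicate block it was 563, all 379 among them, and the block moved no count by over 1.5 times but that of no nitrogen against nitrate and changed no call of a named locus. Leaving out each library gave 185 to 391. Without the 3 libraries that stand apart (nitrate 3 h replicate 2, glutamate 51 h replicate 3 and no nitrogen 51 h replicate 1) it was 480.

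For nitrate at 3 h against the inoculum, 720 loci became 22 with total counts, 129 in a fit of the libraries compared, 456 without those 3 libraries, 109 and 16 within runs 1 and 2, and 20 and 15 with limma. Leaving out each library gave 351 to 759. For no nitrogen against nitrate at 3 h, 0 loci became 1 with DESeq2, 1 with the replicate block and 1 with run as a covariate, and 0 to 3 with each library left out. Against glutamine, 66 became 29 with total counts, 31 and 15 within runs 1 and 2, and 21 and 29 with limma, and leaving out each library gave 40 to 68, the lowest without no nitrogen replicate 1. Against glutamate at 3 h no alternative gave a call.

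At 27 h, 6899 loci became 2842 with total counts, 3774 with the stricter filter, 4164 and 4448 within runs 1 and 2, and 1892 and 1785 with limma, and leaving out each library gave 5489 to 6769. The share of counts in the 10 most abundant loci differed by -3.67 to 0.596 percentage points with each library left out, and turned to 0.139 without inoculum replicate 1. Of the loci of at least 2-fold called higher without repeat 2, 77.1% were higher in it. The 27 h median of the raised list turned from -0.18 to 0.84 for loci of at least 2-fold. The 27 h medians of lists called without a library, of 2-fold lists by other settings, within runs, without the 3 libraries and by scaling were added after the data were seen. With total counts the raised list turned to 0.0897, below the 0.39 of all loci, and the lowered list was at 0.47. In the other added ones for the whole lists the raised list ran from -0.29 to -0.11 and the lowered list from 0.04 to 0.29. Causes of these changes were not tested. TPM values carry no scaling factor, so the limma fits share the limit of total counts. For single named loci, 265 alternative values kept direction and call and 17 lost the call. The lowest of the 4 level classes had the widest median standard error, 0.544.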

Other observations

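Locus_14455, chosen after its values were seen, was the locus that passed for no nitrogen against nitrate at 3 h in the alternative fits that called any single locus. It was at 5.48, 1.49 and 2.42 CPM without nitrogen and 0.951, 0.278 and 1.35 CPM in nitrate, higher in all 3 repeats. The inoculum held 0.656, 0.427 and 0.861 CPM, glutamate at 3 h 2.52, 2.32 and 1.54 CPM, and glutamine at 3 h 0.235, 0.358 and 0.367 CPM. The log2 fold change against nitrate was 2.31 (SE 0.432, edgeR adjusted p = 0.0909), with an adjusted p of 0.00391 in DESeq2 and 0.045 in edgeR with the replicate block. Its log2 fold change at the transfer was 2.16 (edgeR adjusted p = 0.00408).

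Without nitrate replicate 1, Locus_5061 and Locus_9995 passed as well (edgeR adjusted p = 0.0233 for each). Locus_5061 was not called at the transfer, at 5.11, 4.69 and 2.52 CPM in the inoculum and 6.85, 4.98 and 4.44 CPM without nitrogen, and it was at 4.01, 1.51 and 1.62 CPM in nitrate.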
